A study of Mus musculus with 5 samples.

Results

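The cell cycle and mitosis genes described here are a list of 39 genes that drive a cell from G1 through DNA replication into division. A row of the liver table was taken as a member when its gene symbol equalled a listed name, and 38 of the 39 genes were found in this way among 23793 rows. The remaining one, *Foxm1*, is present only in a row that it shares with *4933413G19Rik*. Of the 38, 28 averaged 0.5 FPKM or more over all 5 livers and 10 lay below. FPKM stands for fragments per kilobase of transcript scaled to the number of mapped fragments, so that levels of genes of different length can be compared. The liver RNA came from 3 *Lifr* fl/fl;Alb-Cre mice and 2 *Lifr* fl/fl control mice, all of the C57BL/6 strain and 12 weeks old by the labels, where the knockout genotype is spelled Lifrfl/fl;Crealb/alb. All 5 mice carry floxed *Lifr* alleles. The design text gives their age as 3 months. Cre, driven by the albumin promoter, removes a *Lifr* exon, and the study describes this promoter as specific to hepatocytes. Whether other cells of the liver keep *Lifr* was not tested here. There was no group with Cre and an unfloxed *Lifr*, so Cre and the loss of *Lifr* cannot be told apart. The study asked what this loss does to the liver transcriptome.

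*Lifr*, which encodes the leukemia inhibitory factor receptor, was at 32.8, 44.3 and 54.8 FPKM in the knockout livers, against 132 and 151 FPKM in the control livers, which is -1.71 on the log2 scale (limma, adjusted p = 0.0045). The call was lost with no filter on low genes (adjusted p = 0.062) and when either control value was left out (adjusted p = 0.23 and 0.30 from limma, log2 fold change -1.81 and -1.61). All 14 hepatocyte markers examined, *Ttr* and *Apoa1* among them, had means between 184 and 6940 FPKM, while *Alb* itself is listed at 0 in all 5 libraries. Within each group the values of a gene stand in ascending text order over the columns of the table (15586 of 15586 genes with distinct values), so that no column follows a single mouse. Values are therefore given per group, from low to high, and it cannot be told whether the lowest values of 2 genes came from the same liver. The number of reads per library is unknown. In whole liver, fewer cells of a type and less RNA per cell cannot be told apart.

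Cyclins and cyclin-dependent kinases (CDKs) time the cell cycle. D-type cyclins with CDK4 or CDK6, and then E-type cyclins with CDK2, phosphorylate the retinoblastoma protein and its relatives, which frees E2F transcription factors to switch on the genes of DNA replication. Cyclin A and cyclin B with CDK1 then drive the cell into mitosis, under a second wave of transcription that involves FOXM1 and B-MYB. Adult hepatocytes are mostly quiescent, many are polyploid, and they re-enter the cycle after loss of liver mass or injury.

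Promoters of these genes are known for 3 short elements: the E2F element, the cell cycle homology region (CHR) of genes expressed in G2 and mitosis, and the CCAAT box bound by NF-Y. Windows from 250 bases before to 50 bases after annotated starts were available in RefSeq (GRCm38.p6, the assembly also called mm10) for 31 of the 38 genes, all but *Aurkb*, *Ccna2*, *Ccnd1*, *Ccnd2*, *Ccne2*, *Mcm4* and *Rb1*. They were searched on both strands for TTTCGCGC or TTTGGCGC (E2F), TTTGAA or TTCGAA (CHR) and CCAAT. The E2F letters were found in 7 of 31 genes, against 0.929% of 27025 genes with a window. The CHR letters were found in 11 of 31, against 21.7% of those genes, and CCAAT in 23 of 31, against 41.1%. By role, the E2F letters were in 4 of 6 genes of the MCM and PCNA group, and the CHR letters in 8 of 10 G2 and mitotic genes, each of which also held CCAAT. CHR and CCAAT were together in 9.65% of all genes. The 11 genes with CHR letters had a median level of 0.481 FPKM, and the 20 without them one of 2.19 FPKM. A match of letters is a description of the window and not evidence of binding. The 5 windows printed here were chosen because they belong to the 2 genes with the largest fold changes of the list (*Cdkn2c*, *Rrm2*) and to an example each of the replication (*Mcm6*), the G2 (*Cdk1*) and the mitotic (*Top2a*) type. Capitals mark E2F, CHR and CCAAT letters on either strand.
*Cdkn2c* (chr4:109666707-109667006, minus strand, first of 2 annotated starts): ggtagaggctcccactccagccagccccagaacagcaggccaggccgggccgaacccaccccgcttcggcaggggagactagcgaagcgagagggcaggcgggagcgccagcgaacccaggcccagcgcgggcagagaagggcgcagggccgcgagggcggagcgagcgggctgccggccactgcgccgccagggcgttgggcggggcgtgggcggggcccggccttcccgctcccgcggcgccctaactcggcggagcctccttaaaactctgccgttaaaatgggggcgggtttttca
*Rrm2* (chr12:24708004-24708303, plus strand): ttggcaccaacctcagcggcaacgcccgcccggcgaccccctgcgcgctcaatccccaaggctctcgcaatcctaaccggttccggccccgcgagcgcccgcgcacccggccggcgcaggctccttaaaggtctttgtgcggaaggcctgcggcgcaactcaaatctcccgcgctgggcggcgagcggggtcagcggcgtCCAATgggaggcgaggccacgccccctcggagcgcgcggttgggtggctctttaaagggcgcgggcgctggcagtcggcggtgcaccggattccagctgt
*Mcm6* (chr1:128359656-128359955, minus strand): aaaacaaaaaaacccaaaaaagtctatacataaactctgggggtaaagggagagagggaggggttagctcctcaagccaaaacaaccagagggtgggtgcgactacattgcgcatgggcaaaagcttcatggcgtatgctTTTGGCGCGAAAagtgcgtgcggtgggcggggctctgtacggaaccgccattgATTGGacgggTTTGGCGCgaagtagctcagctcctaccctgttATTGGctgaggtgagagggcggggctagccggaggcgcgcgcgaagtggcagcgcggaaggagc
*Cdk1* (chr10:69352863-69353162, minus strand): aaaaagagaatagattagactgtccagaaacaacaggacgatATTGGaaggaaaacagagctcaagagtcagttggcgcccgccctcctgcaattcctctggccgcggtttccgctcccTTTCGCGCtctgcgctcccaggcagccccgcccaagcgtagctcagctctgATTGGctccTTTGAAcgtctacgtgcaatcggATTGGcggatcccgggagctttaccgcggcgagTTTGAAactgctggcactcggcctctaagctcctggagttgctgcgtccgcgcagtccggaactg
*Top2a* (chr11:99024140-99024439, minus strand): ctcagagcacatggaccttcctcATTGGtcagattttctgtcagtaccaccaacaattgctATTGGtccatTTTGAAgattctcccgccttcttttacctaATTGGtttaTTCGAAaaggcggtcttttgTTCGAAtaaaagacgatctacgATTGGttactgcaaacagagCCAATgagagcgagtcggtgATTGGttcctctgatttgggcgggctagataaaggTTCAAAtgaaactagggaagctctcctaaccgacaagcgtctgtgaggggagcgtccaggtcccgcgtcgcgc

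The *Top2a* window held 4 CHR and 6 CCAAT matches, and the *Cdk1* window 1 E2F, 2 CHR and 3 CCAAT matches. *Mcm6* held 3 E2F matches, of which 2 overlap each other, and 2 CCAAT matches. The *Rrm2* window held 1 CCAAT match and the *Cdkn2c* window shown held none of the letters searched. The window at the second start of *Cdkn2c*, not shown, held 1 CCAAT match, so the gene is counted among those with CCAAT.

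Among the 38 genes, *Pcna*, *Cdk4*, *Ccnd3*, *Tk1* and *Ccnd1* stood highest, 5 genes of G1 and of DNA replication at a mean of 10 FPKM or more, and most genes of mitosis stood lowest. Exons of *Cdk4*, *Ccnd3*, *Tk1* and *Ccnd1* share bases with a gene on the opposite strand. Their levels and rank are therefore uncertain where reads were not assigned by strand. Another 17 genes lay between 1 and 10 FPKM and 6 between 0.5 and 1 FPKM. The 10 genes under 0.5 FPKM were *Ccnb2*, *Top2a*, *Cdc20*, *Ccne2*, *Mki67*, *Ccnb1*, *Plk1*, *Aurkb*, *E2f7* and *Bub1*, and 8 of these belong to the 12 G2 and mitotic genes. At the limit, *Cdk1* was just inside with a mean of 0.519 FPKM and *Ccnb2* just outside with 0.481 FPKM. No gene of the list had a value of 0. The lowest mean of the list was that of *Bub1* (0.0474 FPKM) and the highest that of *Pcna* (21.6 FPKM). For comparison, the median of the 11687 genes tested was 7.43 FPKM, and 5 of the 28 tested genes of the list were above it.

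**Figure D1:**
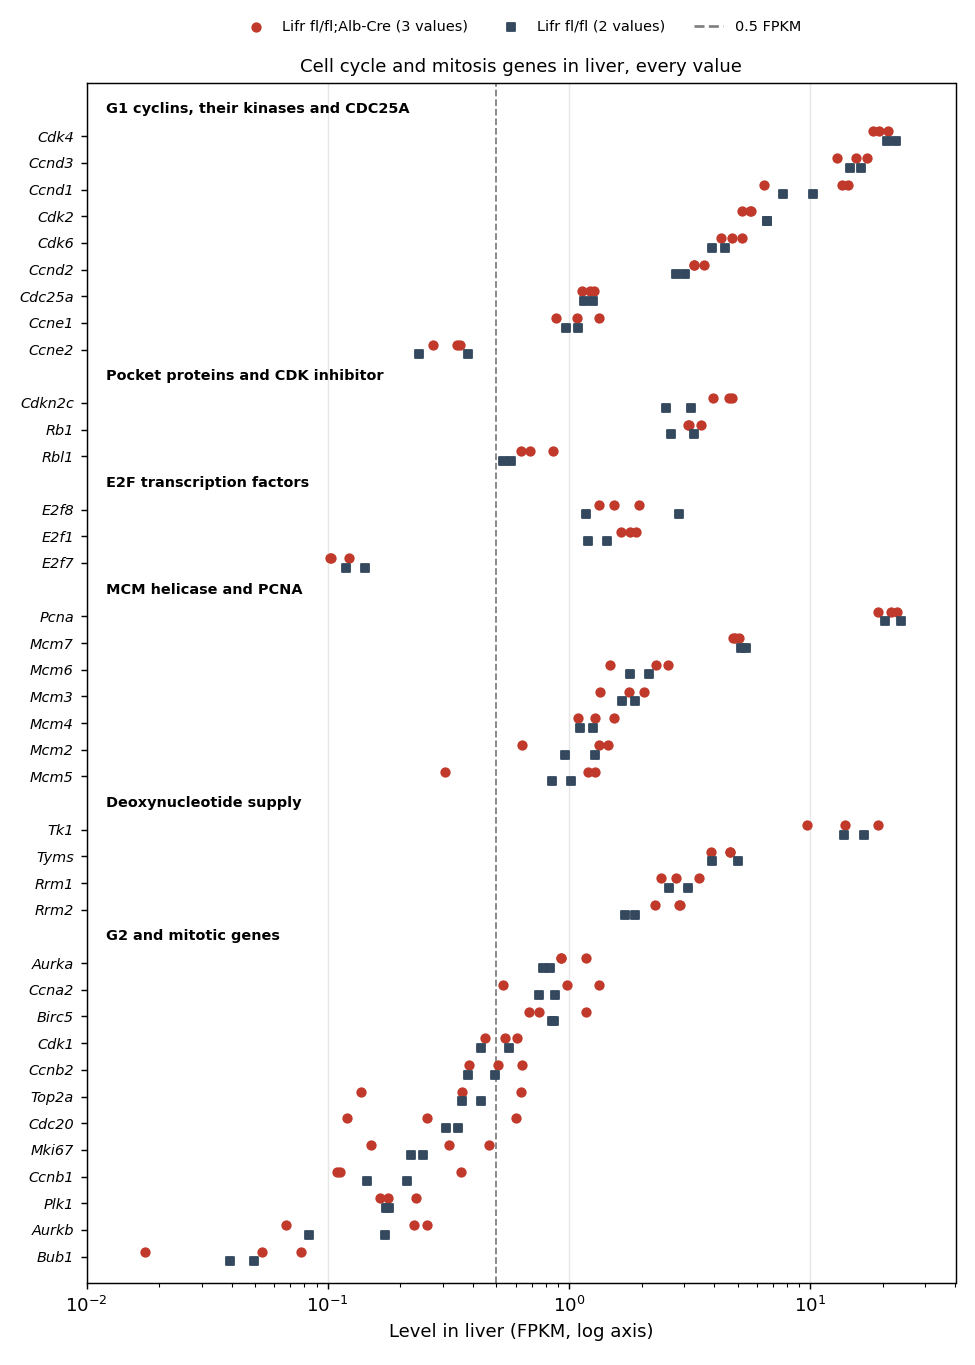
Every value of the 38 cell cycle and mitosis genes in FPKM on a log axis, grouped by role, with knockout values as red circles above control values as dark squares and a dashed line at 0.5 FPKM. The 8 lowest genes of the G2 and mitotic group have means under 0.5 FPKM, and the values of both groups lie within the same range for most genes.

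The question of the comparison was whether the livers that lack *Lifr* in hepatocytes differ in these genes. None of the 28 tested genes was higher or lower in the knockout livers at an adjusted p under 0.05 (limma on log2(FPKM + 0.1), adjusted over all 11687 genes), against 0.359% of all tested genes called higher and 0.205% called lower (0.565% in either direction). The smallest adjusted p of the list was 0.18. At an unadjusted p under 0.05, 3 of 28 genes (10.7%) differed in limma, all higher in the knockout livers, against 6.08% of all tested genes higher, 3.56% lower and 9.63% in either direction. The 3 genes were *Cdkn2c*, *Rrm2* and *E2f1*. Under 6 other settings and in 5 fits with 1 value of each gene left out, none of the list passed either, and 1 to 3 genes had an unadjusted p under 0.05. The groups did not overlap in 8 of 28 genes (28.6%), with the knockout values above in 6 and below in 2, against 25.9% of all tested genes (15.1% above and 10.7% below). The share of genes without overlap lies near that of all genes. The median log2 fold change of the 28 genes was 0.04, beside 0.03 for all tested genes, with 15 of 28 above 0 (54.9% of all tested genes). The 95% interval of the log2 fold change lay between -1 and 1 in 27 of the 28 genes, the exception being *Mcm5*, so that for these 27 a 2-fold difference was outside the interval. Each interval covers 1 gene at a time. The 10 genes under 0.5 FPKM, most of them mitotic, are not among the 28.

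**Figure D2:**
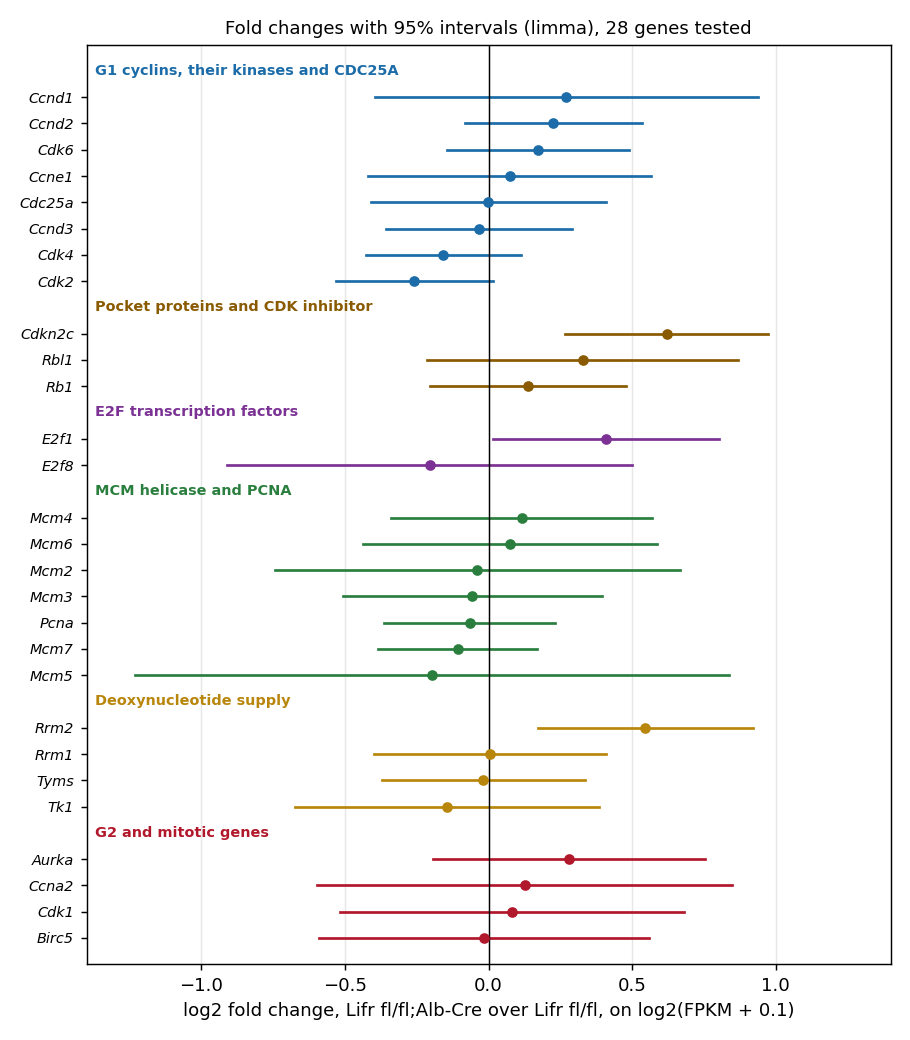
Log2 fold change of knockout over control livers for the 28 tested genes by role, as points with 95% intervals from limma. The intervals of *Cdkn2c*, *Rrm2* and *E2f1* lie above 0, that of *Cdk2* reaches to 0.01, and that of *Mcm5* is the widest, from -1.23 to 0.84.

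Among the G1 cyclins and their kinases, which start the cycle, no gene passed the test and the 2 largest differences were of opposite sign. *Cdk4*, the kinase partner of D-type cyclins, was at 18.2, 19.3 and 21.0 FPKM in knockout livers, against 20.8 and 22.6 FPKM in control livers (log2 fold change -0.16, 95% interval -0.43 to 0.11). Its exons share 641 bases with exons of *Tspan31* on the opposite strand, a gene at 155 FPKM, so its level is uncertain where reads were not assigned by strand. The same limit holds for 12 other genes of the list that share exon bases with a gene on the opposite strand, among them *Ccna2* with *Exosc9* and *Rb1* with *Rcbtb2*. *Cdk6*, the other partner of D-type cyclins, was at 4.25, 4.73 and 5.20 FPKM in knockout livers and at 3.93 and 4.43 FPKM in control livers (log2 fold change 0.17). The values of both kinases overlapped between the groups.

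*Ccnd1*, which encodes cyclin D1 and is the D-type cyclin best known from liver regeneration, had the widest scatter of the G1 genes: 6.46, 13.5 and 14.3 FPKM in knockout livers, against 7.72 and 10.3 FPKM in control livers. Its log2 fold change was 0.27 (95% interval -0.40 to 0.94). The knockout values lie on both sides of the control values. The log2 fold change became 0.63 when the knockout value of 6.46 FPKM was left out (adjusted p = 0.143 from limma). It was 0.11 without the knockout value of 13.5 FPKM and 0.07 without that of 14.3 FPKM. Without the control value of 7.72 FPKM it was 0.07, and without that of 10.3 FPKM 0.475. Exons of *Ccnd1* and of *LTO1* on the opposite strand share 818 bases. *Ccnd2*, encoding cyclin D2, was at 3.30, 3.30 and 3.62 FPKM in knockout livers and at 2.77 and 3.03 FPKM in control livers. The groups did not overlap, but the log2 fold change of 0.23 did not pass (adjusted p = 0.66 from limma). *Ccnd3*, encoding cyclin D3, had the highest level of the 3 D-type cyclins, at 12.8, 15.4 and 17.2 FPKM in knockout livers and 14.7 and 16.2 FPKM in control livers (log2 fold change -0.03). Its exons share 361 bases with those of *Bysl* on the opposite strand. In both groups of livers the order of the mean levels was *Ccnd3*, *Ccnd1* and *Ccnd2*, although the highest value of *Ccnd1* in knockout livers reached into the range of *Ccnd3*.

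*Cdk2*, the kinase that acts with cyclin E and cyclin A, was at 5.23, 5.61 and 5.66 FPKM in knockout livers, against 6.59 and 6.60 FPKM in control livers. Its knockout values were all below the control values, with a log2 fold change of -0.26 (95% interval -0.53 to 0.01, adjusted p = 0.54 from limma). This was the lowest fold change of the list, and its unadjusted p in limma was 0.060, or 0.043 with the shift between groups removed. Its cyclin partners did not show the same pattern: *Ccne1* was at 0.883, 1.08 and 1.33 FPKM in knockout livers and at 0.967 and 1.09 FPKM in control livers, and *Ccne2*, under 0.5 FPKM, averaged 0.323 FPKM in knockout livers and 0.310 FPKM in control livers. *Cdc25a*, which encodes a phosphatase that activates CDK2, had nearly equal means of 1.20 FPKM in knockout livers and 1.20 FPKM in control livers (95% interval of the log2 fold change -0.41 to 0.41).

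The largest fold change of the list was that of an inhibitor. *Cdkn2c* (XLOC_014996, chromosome 4, 109660876 to 109666756) encodes p18-INK4C, which binds CDK4 and CDK6 and keeps them from D-type cyclins. It was at 3.94, 4.62 and 4.76 FPKM in knockout livers, against 2.51 and 3.22 FPKM in control livers. Each knockout value was above both control values. The means were 4.44 ± 0.440 FPKM (SD, n = 3) in knockout livers and 2.87 ± 0.496 FPKM (SD, n = 2) in control livers. The log2 fold change was 0.62 (standard error 0.16, 95% interval 0.27 to 0.97), and it did not pass over all genes (adjusted p = 0.18 from limma). Under the 6 other settings and in the 5 fits with 1 value left out, the adjusted p of *Cdkn2c* ranged from 0.167 to 0.737, and the fold change from 0.45 to 0.79.

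The pocket proteins, which hold E2F factors in check, had fold changes above 0 that did not pass. *Rb1*, encoding the retinoblastoma protein, was at 3.11, 3.15 and 3.53 FPKM in knockout livers, against 2.64 and 3.30 FPKM in control livers (log2 fold change 0.14, 95% interval -0.20 to 0.48). *Rbl1*, encoding its relative p107, was at 0.629, 0.686 and 0.862 FPKM in knockout livers, against 0.534 and 0.573 FPKM in control livers. The groups of *Rbl1* did not overlap, and its log2 fold change was 0.33 (95% interval -0.21 to 0.87, adjusted p = 0.71 from limma). *Rbl1* is close to the limit of 0.5 FPKM.

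Of the E2F factors, *E2f1* (XLOC_012668, chromosome 2, 154559400 to 154569892), an activator of replication genes, was at 1.64, 1.79 and 1.90 FPKM in knockout livers, against 1.19 and 1.44 FPKM in control livers. All 3 knockout values were above the control values. The log2 fold change was 0.41 (standard error 0.18, unadjusted p = 0.043 and adjusted p = 0.50 from limma). When single values were left out, the unadjusted p lay between 0.040 and 0.221, and it was over 0.05 with no filter, with a minimum of 1 FPKM and with the shift between groups removed. *E2f8*, which encodes a repressor of the same genes that is linked to polyploidy of hepatocytes, was at 1.34, 1.54 and 1.94 FPKM in knockout livers and at 1.18 and 2.86 FPKM in control livers. The 2 control values of *E2f8* enclose all the knockout values, and its log2 fold change of -0.20 became 0.40 without the control value of 2.86 FPKM and -0.81 without that of 1.18 FPKM. *E2f7*, its close relative, was under 0.5 FPKM, with means of 0.109 FPKM in knockout livers and 0.130 FPKM in control livers. The row shared by *4933413G19Rik* and *Foxm1*, the factor that drives the genes of mitosis, was at 0.0465, 0.174 and 0.189 FPKM in knockout livers, against 0.138 and 0.150 FPKM in control livers.

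The MCM proteins, which form the helicase that unwinds DNA at replication origins, and PCNA, the clamp that holds DNA polymerases, held no gene that passed the test. *Pcna* was at 19.0, 21.5 and 23.0 FPKM in knockout livers, against 20.5 and 23.9 FPKM in control livers (log2 fold change -0.07, 95% interval -0.36 to 0.23). PCNA also serves in DNA repair. *Mcm7* had the highest level of the helicase genes, with 4.79, 4.86 and 5.08 FPKM in knockout livers and 5.18 and 5.41 FPKM in control livers. The knockout values of *Mcm7* were all below the control values, with a difference of -0.11 on the log2 scale (limma, adjusted p = 0.82). Its exons overlap those of *Cops6* (64 bases) and *Ap4m1* (321 bases) on the opposite strand.

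In *Mcm2*, *Mcm4*, *Mcm5* and *Mcm6* 1 knockout value stood below both control values and the other 2 above them. *Mcm2* was at 0.638, 1.33 and 1.45 FPKM in knockout livers, against 0.966 and 1.28 FPKM in control livers. *Mcm5* was at 0.306, 1.20 and 1.28 FPKM in knockout livers, against 0.852 and 1.02 FPKM in control livers. *Mcm6* was at 1.48, 2.30 and 2.58 FPKM in knockout livers, against 1.80 and 2.14 FPKM in control livers. *Mcm3* was at 1.34, 1.77 and 2.04 FPKM in knockout livers, against 1.65 and 1.88 FPKM in control livers, with 1 knockout value between the control values. Whether these low values belong to 1 liver cannot be read from the table. The log2 fold change of *Mcm5* was -0.20 and became 0.38 without the value of 0.306 FPKM. *Mcm4* was at 1.09, 1.29 and 1.54 FPKM in knockout livers and 1.11 and 1.26 FPKM in control livers. None of the 7 genes passed, and their log2 fold changes ran from -0.20 to 0.12.

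Of the 4 genes that supply deoxynucleotides, none passed and 1 had groups that did not overlap. *Rrm2* (XLOC_004255, chromosome 12, 24708254 to 24714146) encodes the small subunit of ribonucleotide reductase, whose level is cell cycle dependent. It was at 2.27, 2.86 and 2.89 FPKM in knockout livers, against 1.70 and 1.88 FPKM in control livers. The groups did not overlap. The means were 2.68 ± 0.352 FPKM (SD, n = 3) in knockout livers and 1.79 ± 0.124 FPKM (SD, n = 2) in control livers. The log2 fold change was 0.55 (standard error 0.17, 95% interval 0.17 to 0.92), with an unadjusted p of 0.0088 and an adjusted p of 0.28 from limma. With single values left out, its unadjusted p lay between 0.0033 and 0.073. *Rrm1*, encoding the large subunit of the same enzyme, was at 2.42, 2.78 and 3.47 FPKM in knockout livers, against 2.60 and 3.13 FPKM in control livers, with a log2 fold change of 0.00 (95% interval -0.40 to 0.41). The difference between the fold changes of the 2 subunits was not tested. *Tyms*, thymidylate synthase, was at 3.86, 4.65 and 4.67 FPKM in knockout livers, against 3.91 and 5.03 FPKM in control livers, and had a log2 fold change of -0.02 (95% interval -0.37 to 0.33). *Tk1*, thymidine kinase 1, was at 9.74, 13.9 and 19.1 FPKM in knockout livers, against 13.8 and 16.7 FPKM in control livers, and the knockout values lie on both sides of the control values. Its exons share 83 bases with those of *Afmid* on the opposite strand, a gene at 50.5 FPKM.

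The G2 and mitotic genes were low in both groups. The summed means of the 12 genes were 5.50 FPKM in knockout livers and 4.90 FPKM in control livers. *Aurka*, encoding the aurora kinase of the centrosome, was at 0.926, 0.926 and 1.17 FPKM in knockout livers, against 0.783 and 0.833 FPKM in control livers. It was the 1 gene of this group whose knockout values were all above the control values (log2 fold change 0.28, 95% interval -0.19 to 0.75, adjusted p = 0.71 from limma). *Ccna2*, encoding cyclin A2, was at 0.531, 0.980 and 1.33 FPKM in knockout livers and at 0.747 and 0.872 FPKM in control livers. *Birc5*, encoding the survivin subunit of the chromosomal passenger complex, was at 0.682, 0.752 and 1.18 FPKM in knockout livers, against 0.853 and 0.863 FPKM in control livers. *Cdk1*, the mitotic kinase, was at 0.448, 0.544 and 0.606 FPKM in knockout livers, against 0.432 and 0.564 FPKM in control livers, with a log2 fold change of 0.08 (95% interval -0.52 to 0.68).

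Below 0.5 FPKM, the groups overlapped in all 10 genes. *Mki67*, which encodes the Ki-67 antigen used to stain cycling cells, was at 0.151, 0.319 and 0.465 FPKM in knockout livers, against 0.221 and 0.249 FPKM in control livers. *Top2a*, the topoisomerase that untangles chromosomes, was at 0.137, 0.360 and 0.635 FPKM in knockout livers, against 0.359 and 0.430 FPKM in control livers. For both genes the knockout values lie on either side of the control values. *Cdc20*, an activator of the anaphase-promoting complex, was at 0.120, 0.257 and 0.604 FPKM in knockout livers and at 0.310 and 0.347 FPKM in control livers. *Ccnb1* and *Ccnb2*, the B-type cyclins, averaged 0.193 and 0.511 FPKM in knockout livers, and 0.179 and 0.437 FPKM in control livers. The mitotic kinases *Plk1*, *Aurkb* and *Bub1* averaged 0.191, 0.185 and 0.0494 FPKM in knockout livers, and 0.177, 0.128 and 0.0444 FPKM in control livers. These genes entered limma with no filter only, where none passed (smallest adjusted p = 0.83) and where the pseudocount of 0.1 FPKM reduces their fold changes. The highest knockout value of a gene was at the median 3.19 times the lowest in these 10 genes, 1.34 times in the 28 tested genes of the list, and 1.23 times over all tested genes. The median ratio over all tested genes with a mean under 2 FPKM was 1.37, and that over the 13 tested genes of the list in this range 1.46. All tested genes average 0.5 FPKM or more, and no such median was taken over all genes under 0.5 FPKM.

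**Figure D3:**
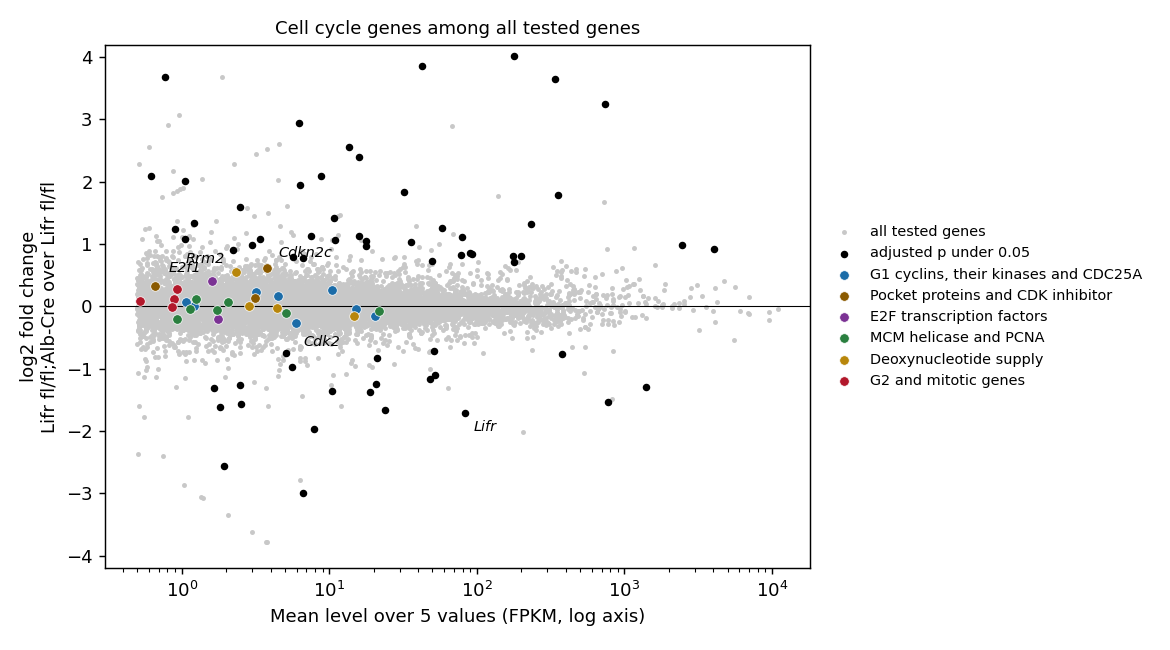
Log2 fold change of knockout over control livers against the mean level in FPKM (log axis) for all tested genes in grey, genes at an adjusted p under 0.05 in black and the 28 cell cycle genes in colour by role. The coloured points lie between -0.26 and 0.62, within the grey cloud, while *Lifr* is at -1.71, and 8 genes beyond the plotted range are not drawn.

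Further genes of the cell cycle were taken from 5 lists that hold 164 genes in all, of which 102 were tested. Not one of them passed in limma when adjusted over the whole table. At an unadjusted p under 0.05, 3 were higher and 2 were lower, against 6.08% higher and 3.56% lower of all tested genes. The median log2 fold change was -0.0047, with 49 above 0 and 53 below, beside 54.9% of all tested genes above 0. Among 38 other replication genes tested, 1 was higher and 1 lower at an unadjusted p under 0.05, with a median of -0.02. These were *Orc2* and *Pold2*, named here after their values were seen. *Orc2*, a subunit of the origin recognition complex, averaged 2.27 ± 0.325 FPKM (SD, n = 3) in knockout livers and 1.61 ± 0.255 FPKM (SD, n = 2) in control livers. *Pold2*, a subunit of DNA polymerase delta, averaged 6.22 ± 0.875 FPKM (SD, n = 3) in knockout livers and 7.98 ± 0.694 FPKM (SD, n = 2) in control livers. Their adjusted p was 0.46 and 0.48 from limma. The replication genes with the highest level were *Mcm10*, an initiation factor at 26.2 FPKM in knockout livers and 26.3 FPKM in control livers, and *Rfc2*, a subunit of the clamp loader at 10.3 FPKM in knockout livers and 10.7 FPKM in control livers. The groups of *Mcm10* and of *Rfc2* overlapped.

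Of 56 other mitosis genes, 40 were below 0.5 FPKM and none of the 16 tested had an unadjusted p under 0.05 (median log2 fold change 0.05). The highest were *Pttg1*, encoding securin, at 29.8 FPKM in knockout livers and 31.4 FPKM in control livers, and *Cks2*, encoding a CDK-binding subunit, at 17.9 FPKM in knockout livers and 18.8 FPKM in control livers. Of 12 tested genes of the other E2F, DP and DREAM list, 10 lay above 0 on the log2 scale, against 54.9% of all tested genes. The median of this list was 0.08, and none of it had an unadjusted p under 0.05 in limma. The highest were *Rbbp4* and *Rbbp7*, which encode histone-binding proteins, at log2 fold changes of 0.11 and 0.01. Of 21 tested genes of the last list, with CDK-activating genes, subunits of the SCF ubiquitin ligase and of the anaphase-promoting complex, 13 lay above 0, with a median of 0.05. *Skp1a* and *Cdc34*, which act in the SCF pathway, had the highest levels of this list and log2 fold changes of 0.14 and -0.17.

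The list of other CDK inhibitors and brakes held the largest single differences. Its 15 tested genes had a median log2 fold change of -0.16, with 4 above 0 and 11 below, against 54.9% of all tested genes above 0. At an unadjusted p under 0.05 in limma, 2 were higher and 1 was lower, against 6.08% higher and 3.56% lower of all tested genes. *Ccng1* and *Rbl2*, the genes with the highest level in it, averaged 15.6 and 13.3 FPKM in knockout livers, and 11.5 and 12.4 FPKM in control livers. *Ccng1* encodes cyclin G1, a target of p53, and *Rbl2* encodes the pocket protein p130 of resting cells. Both had all knockout values above the control values, and their log2 fold changes were 0.41 and 0.09 (adjusted p = 0.51 and 0.85 from limma). The knockout values of *Ccng1* were 13.3, 13.6 and 20.0 FPKM, and without that of 20.0 FPKM its log2 fold change was 0.22. The genes named next were chosen after their values were seen. *Cdkn1a*, encoding the CDK inhibitor p21, was at 0.759, 1.27 and 1.45 FPKM in knockout livers, against 0.537 and 0.732 FPKM in control livers. Its groups did not overlap, and its log2 fold change was 0.75 (95% interval 0.11 to 1.38, adjusted p = 0.43 from limma), between 0.5529 and 0.9985 with single values left out. *Cdkn1b*, encoding the inhibitor p27, was at 7.80, 8.25 and 8.38 FPKM in knockout livers, against 9.14 and 9.89 FPKM in control livers. The knockout values of *Cdkn1b* were all below the control values (log2 fold change -0.22, adjusted p = 0.60 from limma). Those of *Mdm2* were all above, at 11.8, 13.5 and 13.7 FPKM in knockout livers, against 10.6 and 11.1 FPKM in control livers. The log2 fold change of *Mdm2* was 0.26 (adjusted p = 0.55 from limma). *Gas1*, a growth arrest gene, was at 3.33, 4.30 and 8.83 FPKM in knockout livers, against 8.62 and 9.29 FPKM in control livers, a difference of -0.82 on the log2 scale (limma, adjusted p = 0.45). Without the knockout value of 8.83 FPKM it was -1.22 (adjusted p = 0.0063 from limma), and without that of 3.33 FPKM it was -0.53 (adjusted p = 0.63). In 4 of the 5 fits with a value left out *Gas1* did not pass.

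**Figure D4:**
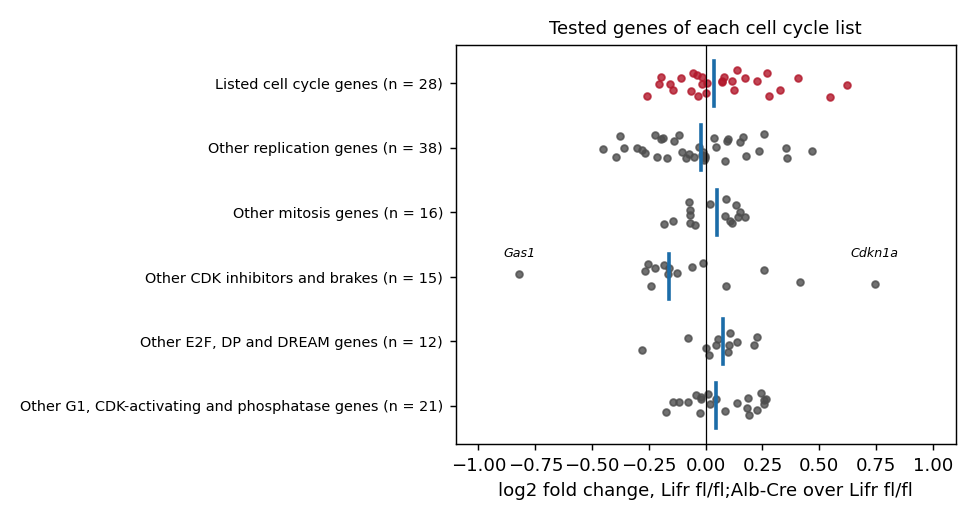
Log2 fold change of knockout over control livers for the tested genes of the cell cycle list (red) and of 5 other cell cycle lists (grey), with 1 point per gene and a blue bar at the median. The medians lie between -0.16 and 0.08, and *Cdkn1a* (0.75) and *Gas1* (-0.82) lie farthest from 0.

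Markers of other cell types of the liver were measured beside these genes. For Kupffer cells, the macrophages resident in liver, 11 of 11 markers lay above 0 on the log2 scale (median 0.42), against 54.9% of all tested genes. Their summed means were 405 FPKM in knockout livers and 300.5 FPKM in control livers. None of these 11 passed in limma. At an unadjusted p under 0.05 in limma, 6 were higher, against 6.08% of all tested genes. Of the 7 neutrophil markers found, 3 were tested, and *S100a9* was higher (log2 fold change 1.59, adjusted p = 0.018 from limma). The summed means of the neutrophil markers were 8.40 FPKM in knockout livers and 3.06 FPKM in control livers. The 4 neutrophil markers that were not tested had means under 0.5 FPKM. Markers of endothelial, erythroid, lymphoid, biliary and stellate cells had medians between -0.25 and 0.12, over 8, 3, 4, 4 and 8 tested markers. For the stellate markers 3 lay above 0 and 5 below (median -0.16). Their summed means were 92.1 FPKM in knockout livers and 78.3 FPKM in control livers. The part of these cells in the levels of *Cdkn2c*, *Rrm2* and *E2f1* was not tested.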

How the data were processed

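RNA-seq of liver from 3 *Lifr* fl/fl;Alb-Cre and 2 *Lifr* fl/fl mice was deposited by the authors as a table of FPKM values per gene and liver, made with TopHat2 2.1.1, SAMtools 1.5 and Cufflinks 2.2.1 on mm10 after FastQC 0.11.5, per the labels and methods. Columns with the authors' own comparison (fold change, p-value and significance) were not used. FPKM keep no read counts, so depth and its precision are unknown, and strand use in counting is not given in the sources used here. The methods describe the livers as coming from separate mice.

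FPKM values were transformed to log2(FPKM + 0.1), genes with a mean under 0.5 FPKM were left out (11687 of 23793 kept), and groups were compared with limma 3.58.1 (trend, R 4.3.3) and Benjamini-Hochberg adjustment over all genes tested, at 0.05. The code was tested on simulated data. An exact permutation test has 10 arrangements here and cannot go under a two-sided p of 0.2, so none is given. The members and lists were chosen with earlier results of these data known. All members were named, with the 2 genes of highest mean in each other list. The rule also took up to 4 genes of each list past the threshold, of which there were none. *Orc2*, *Pold2*, *Cdkn1a*, *Cdkn1b*, *Mdm2* and *Gas1* were named after their values were seen. Alternatives were pseudocounts of 1 and 0.01 FPKM, no filter, a minimum of 1 FPKM, no trend, removal of the median shift, and leaving out each value. Promoter windows and gene coordinates are RefSeq, GRCm38.p6, and exon overlaps are from GENCODE.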

Additional observations from a re-analysis of the deposited data

How the results depend on the processing

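Of the 28 tested genes, 11 kept the sign of their log2 fold change whichever single value was left out, and 17 did not. Leaving out a value removes 1 of 5 values of each gene, not 1 mouse. The ranges in those fits were -0.18 to 0.0453 for *Pcna*, -0.13 to 0.0783 for *Ccnd3*, -0.38 to 0.10 for *Tk1*, -0.20 to 0.16 for *Tyms*, -0.0175 to 0.29 for *Rb1* and -0.13 to 0.13 for *Rrm1*. They were -0.0791 to 0.30 for *Mcm6*, -0.81 to 0.40 for *E2f8*, -0.18 to 0.10 for *Mcm3*, -0.0004 to 0.23 for *Mcm4*, -0.0533 to 0.0522 for *Cdc25a* and -0.24 to 0.30 for *Mcm2*. They were -0.0638 to 0.21 for *Ccne1*, -0.51 to 0.38 for *Mcm5*, -0.14 to 0.45 for *Ccna2*, -0.23 to 0.12 for *Birc5* and -0.0782 to 0.24 for *Cdk1*. Of the 6 other settings, removal of the shift turned *Rrm1* to -0.0209 and a pseudocount of 1 FPKM turned *Birc5* to 0.0004.

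Over all genes, 66 passed the threshold, against 16 with no filter, 32 without a trend and 15 to 101 with a value left out. In the list of other CDK inhibitors and brakes, 0 to 1 passed with a value left out, the 1 being *Gas1*. *Lifr* was at -1.71 with no filter, where it missed the threshold, and between -1.89 and -1.52 with a value left out. The cause of these changes was not tested. The knockout and control livers came from separate mice, so the comparison was unpaired. Because the columns follow no single mouse, no liver could be left out as a whole. Low genes are limited by an unknown depth.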
